A study of Homo sapiens with 9 samples.

Results

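The human mitochondrial genome is a circle of 16569 bases with 37 genes, and the RNAs it makes were followed here. The cells are parental or labelled as altered in TRAP-1, a chaperone of the HSP90 family that resides in mitochondria. The members were taken by name: every gene in the deposited table whose symbol, looked up from its Ensembl ID, starts with MT-. There were 34 such genes among 22290, namely all 13 mRNAs, both rRNAs and 19 of the 22 tRNAs. The tRNA genes MT-TW, MT-TA and MT-TS1 were not analysed here. Whole-cell RNA of 9 libraries was sequenced, 3 in each of 3 groups, all labelled as the neuroblastoma line IMR-32. PAR is the parental line with wild-type genotype, KD is labelled as a TRAP-1 knockdown and OE as a TRAP-1 overexpression. PAR holds no vector control. How the knockdown was made and whether a line descends from a single clone is not given in the sources used here. Values are regularized log2 values (rlog), which the authors scaled for library size and shrank towards the mean of each gene. A difference of rlog values is therefore smaller than an unshrunken log2 fold change, by an amount that grows as the level falls, and it was not turned into a fold. A nominal coverage is stated for the sequencing, but the number of reads counted in each library cannot be read from rlog values. Because separate cultures are not stated, the p-values measure only the spread between these samples, which may be technical.

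The targeted gene was examined first, since it checks the labels. The rlog value of TRAP1 was 10.67, 10.66 and 10.65 in the PAR libraries, 10.79, 10.79 and 10.83 in the KD libraries, and 10.67, 10.63 and 10.74 in the OE libraries. All 3 KD libraries lay above all 3 PAR libraries, against their label, by 0.14 (limma, standard error 0.025, adjusted p = 1.8e-05), and the OE libraries overlapped PAR with a difference of 0.018 (95% interval -0.033 to 0.069, adjusted p = 0.64 from limma). KD and OE therefore stand for the libraries labelled so wherever a direction is given.

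The label of the cell line was compared with its markers in the same way. Values of 10 neuroblastoma markers were examined. The transcription factors of the sympathetic lineage were partly in the middle of the range or above, with mean parental rlog values of 9.37 for ISL1, 9.27 for GATA2, 7.25 for GATA3 and 6.36 for HAND2. Others were near the bottom of the table. MYCN, which is amplified in IMR-32, had a mean of 2.52 in PAR, with only 18.9% of all genes at or below its mean over the 9 libraries, and PHOX2A had 1.33. DBH and STMN2 were not analysed here. Vimentin (VIM, 15.72), fibronectin (FN1, 13.97) and the mesenchymal factor PRRX1 (11.70) were high, unlike the collagen gene COL1A1 (4.21), and keratin 18 (KRT18, 12.06), CLDN4 (10.10) and S100B (11.09) were high too, whereas EPCAM (2.59) and the leukocyte gene PTPRC (2.65) were low. The methods of the study state that the line was authenticated. The defining marker MYCN was low in these libraries, and the markers printed here were picked from fixed lists after their levels were seen.

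As background, both strands of the mitochondrial genome are copied from end to end into long precursor RNAs by the polymerase POLRMT with its partners TFAM and TFB2M. The tRNA genes lie between most of the others like punctuation, and cutting them out by RNase P at one end and ELAC2 at the other releases the rRNAs and mRNAs. Most of the mRNAs then gain a short poly(A) tail, which completes the stop codon where the gene ends short of it. The later level of an mRNA depends on synthesis and on stability, for which LRPPRC with SLIRP is the best known factor. The 13 mRNAs encode core subunits of the respiratory chain, and the rRNAs and tRNAs serve the mitochondrial ribosome that translates them. Genes of one strand share a precursor, so unequal shifts of neighbours are of interest in themselves.

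Of the 37 annotated genes, 28 lie on the plus strand of the reference and 9 on the minus strand (GRCh38, GENCODE 44). Among those with values the plus strand held 12 mRNAs, 2 rRNAs and 13 tRNAs, and the minus strand held MT-ND6 and 6 tRNAs. The gene sequences of 3 minus-strand tRNAs and 4 plus-strand tRNAs are given here because these are the 7 tRNAs that were called between KD and PAR, in opposite directions by strand. They are read 5′ to 3′ on the strand of the gene, with the anticodon in capitals, and are between 59 and 73 bases long, shorter than the 150-base reads.
MT-TN (chrM:5657-5729, minus strand): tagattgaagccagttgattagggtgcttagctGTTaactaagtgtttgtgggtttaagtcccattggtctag
MT-TC (chrM:5761-5826, minus strand): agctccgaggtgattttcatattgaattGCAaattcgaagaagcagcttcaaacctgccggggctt
MT-TP (chrM:15956-16023, minus strand): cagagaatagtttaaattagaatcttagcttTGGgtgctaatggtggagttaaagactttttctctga
MT-TG (chrM:9991-10058, plus strand): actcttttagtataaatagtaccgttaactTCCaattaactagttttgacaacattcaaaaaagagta
MT-TR (chrM:10405-10469, plus strand): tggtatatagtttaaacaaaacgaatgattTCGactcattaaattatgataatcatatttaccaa
MT-TH (chrM:12138-12206, plus strand): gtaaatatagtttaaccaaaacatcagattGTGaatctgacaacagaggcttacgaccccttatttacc
MT-TS2 (chrM:12207-12265, plus strand): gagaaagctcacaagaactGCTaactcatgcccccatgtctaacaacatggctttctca

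The junctions between genes are shown where reading frames overlap, because reads that cross them belong to both genes, and for MT-ND1, where the frame ends short of a stop codon. The frames of MT-ATP8 and MT-ATP6 overlap by 46 bases and those of MT-ND4L and MT-ND4 by 7, and each of these pairs is known to stay on a single mRNA. MT-ATP6 and MT-CO3 share 1 base, and the frame of MT-ND1 ends in TA directly before MT-TI, so that its stop codon exists only after polyadenylation. The overlapping or shared bases, and the last 2 bases of MT-ND1, are in capitals.
MT-ATP8/MT-ATP6 (chrM:8517-8582, plus strand): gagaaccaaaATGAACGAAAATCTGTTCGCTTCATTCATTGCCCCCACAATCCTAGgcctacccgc
MT-ND4L/MT-ND4 (chrM:10740-10786, plus strand): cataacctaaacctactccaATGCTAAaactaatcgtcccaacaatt
MT-ATP6/MT-CO3 (chrM:9187-9227, plus strand): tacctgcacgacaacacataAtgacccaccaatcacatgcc
MT-ND1/MT-TI (chrM:4241-4280, plus strand): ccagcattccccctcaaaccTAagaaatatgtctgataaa

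The mRNAs were among the most abundant RNAs of the cells. Taken back from the log2 scale, the 34 genes together made up 4.11% ± 0.054 (SD, n = 3) of the summed level of all genes in PAR, of which MT-CO1 alone held 0.964% ± 0.0060 (SD, n = 3). MT-CO1 ranked number 1 of all 22290 genes by mean rlog, MT-ND4 number 3 and MT-CO3 number 6. Compared per length, as linear level per kb of gene in PAR, MT-CO1 (219339 ± 1715) was highest, followed by MT-CO3 (206361 ± 4266), MT-ATP6 (197774 ± 2608) and MT-ND4 (179456 ± 3458, SD, n = 3 for each). MT-ND1 was the lowest mRNA (27790 ± 367, SD, n = 3), 7.89-fold below MT-CO1, although the same precursor carries both. The intervals of 1 SD of MT-CO3 and MT-ATP6 did not meet, while MT-ND2 (73714 ± 1481) and MT-ND3 (73937 ± 1987, SD, n = 3) did not differ beyond their spread.

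The rRNAs were lower per length than most mRNAs, at 34691 ± 2085 for MT-RNR2 and 12564 ± 511 for MT-RNR1 (linear level per kb in PAR, SD, n = 3), in libraries made with a kit that selects poly(A) RNA. The tRNAs split into unequal groups. MT-TP (14208 per kb), MT-TN (5624) and MT-TC (4261), all from the minus strand, stood above the other 16 tRNAs, which ranged from 31.0 for MT-TD to 1356 for MT-TH with a median of 116. The lowest of the 3 was 3.14-fold above the highest of the 16. The minus-strand mRNA MT-ND6 had 51321 ± 908 (SD, n = 3), 4.27-fold below MT-CO1. As a tRNA is shorter than a read, reads assigned to it reach into its neighbours, and how reads over several genes were counted, and whether strand was used, is not given in the sources used here. The kit does not mark strand, so RNA of either strand over these tRNA genes or over MT-ND6 cannot be told apart.

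**Figure D1:**
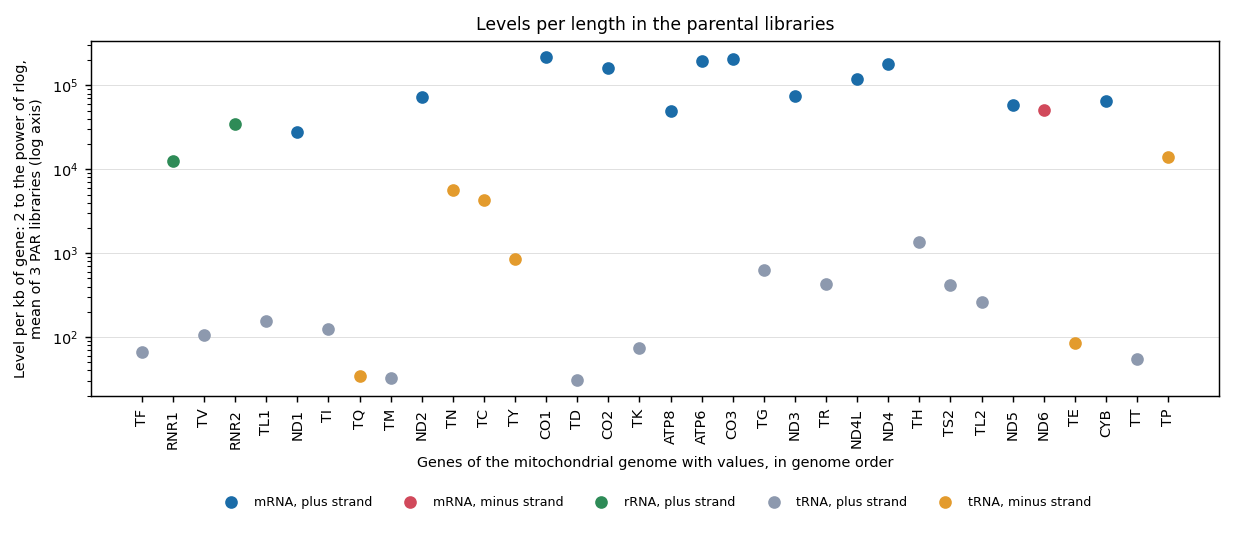
Linear level per kb of gene (2 to the power of rlog, mean of the 3 PAR libraries, log axis) for 34 mitochondrial genes in genome order, coloured by class and strand. MT-CO1 at 219339 is highest and MT-TD at 31.0 lowest, and MT-TN, MT-TC and MT-TP lie above the other tRNAs.

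Between KD and PAR the mitochondrial genes moved in both directions. All 13 mRNAs and both rRNAs were called, 10 of them higher and 5 lower, and among 19 tRNAs 3 were higher and 4 lower. In all, 22 of the 34 genes were called (limma, Benjamini-Hochberg adjustment over all 22290 genes, adjusted p under 0.05), 13 higher and 9 lower. Over all genes 53.7% were called, 26.9% higher and 26.9% lower, and among the 714 nuclear genes whose mean rlog reached 13, closer in level to the mitochondrial mRNAs, 83.2% were called. The median difference was 0.067 over the mRNAs, with a range from -0.19 to 0.42, and -0.00051 over all genes. The median size of the difference was 0.16 for the mRNAs and 0.11 for the 714 abundant nuclear genes. In whole-cell RNA, a changed number of mitochondrial genomes or of transcribing mitochondria and a changed amount of RNA per genome cannot be told apart.

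In the values as scaled by the authors, all called shifts between OE and PAR went up. Of the 34 genes 15 were called higher and none lower, made up of 10 mRNAs, both rRNAs and 3 tRNAs, and no further gene was lower at an unadjusted p under 0.05. Over all genes 34.8% were called, 16.9% higher and 18.0% lower, and 72.4% of the abundant nuclear genes were called. The median difference was 0.13 over the mRNAs and 0.00039 over all genes. Under another centring, each library on its own median, the share of higher among all called genes went from 48.5% to 36.2%, and with each library scaled to the sum of genes outside the mitochondrial genome to 55.2%. After median centring the same number of mitochondrial genes, 15, was called higher, and with the scaling to the sum 17. Under quantile normalization 11 were called higher and 1 lower.

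Between OE and KD, a difference of means without the PAR libraries, which enter only the pooled variance, 21 genes were called, 14 higher in OE and 7 lower. Over all genes 47.3% were called, 23.5% higher and 23.8% lower, and 78.7% of the abundant nuclear genes. The mRNAs again split, with 8 higher in OE and 4 lower. KD against PAR and OE against PAR share their PAR libraries, so their values are given side by side and not as independent evidence of each other.

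The libraries with shifted mitochondrial RNAs also differed in markers of other cell types. The mesenchymal factor PRRX1 rose by 1.29 in KD and 0.69 in OE, vimentin (VIM) by 0.36 and 0.15, and fibronectin (FN1) fell by 0.96 in KD and rose by 0.55 in OE. Of 4 mesenchymal markers 2 were called higher and 1 lower in KD, and 3 higher and none lower in OE. Among 5 epithelial markers with values, keratin 8 (KRT8) rose by 0.39 in KD and 0.40 in OE as the only one called higher, and CLDN4 fell by 0.57 in OE, where KRT18 fell too. The glial marker S100B rose by 0.29 in OE only. Of the 10 neuroblastoma markers 2 were higher and 5 lower in KD, and none higher and 3 lower in OE, while the leukocyte gene PTPRC was called in neither. Over all genes 26.9% were higher and 26.9% lower in KD, and 16.9% and 18.0% in OE. The part of such differences in the shifts of mitochondrial RNAs was not tested.

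**Figure D2:**
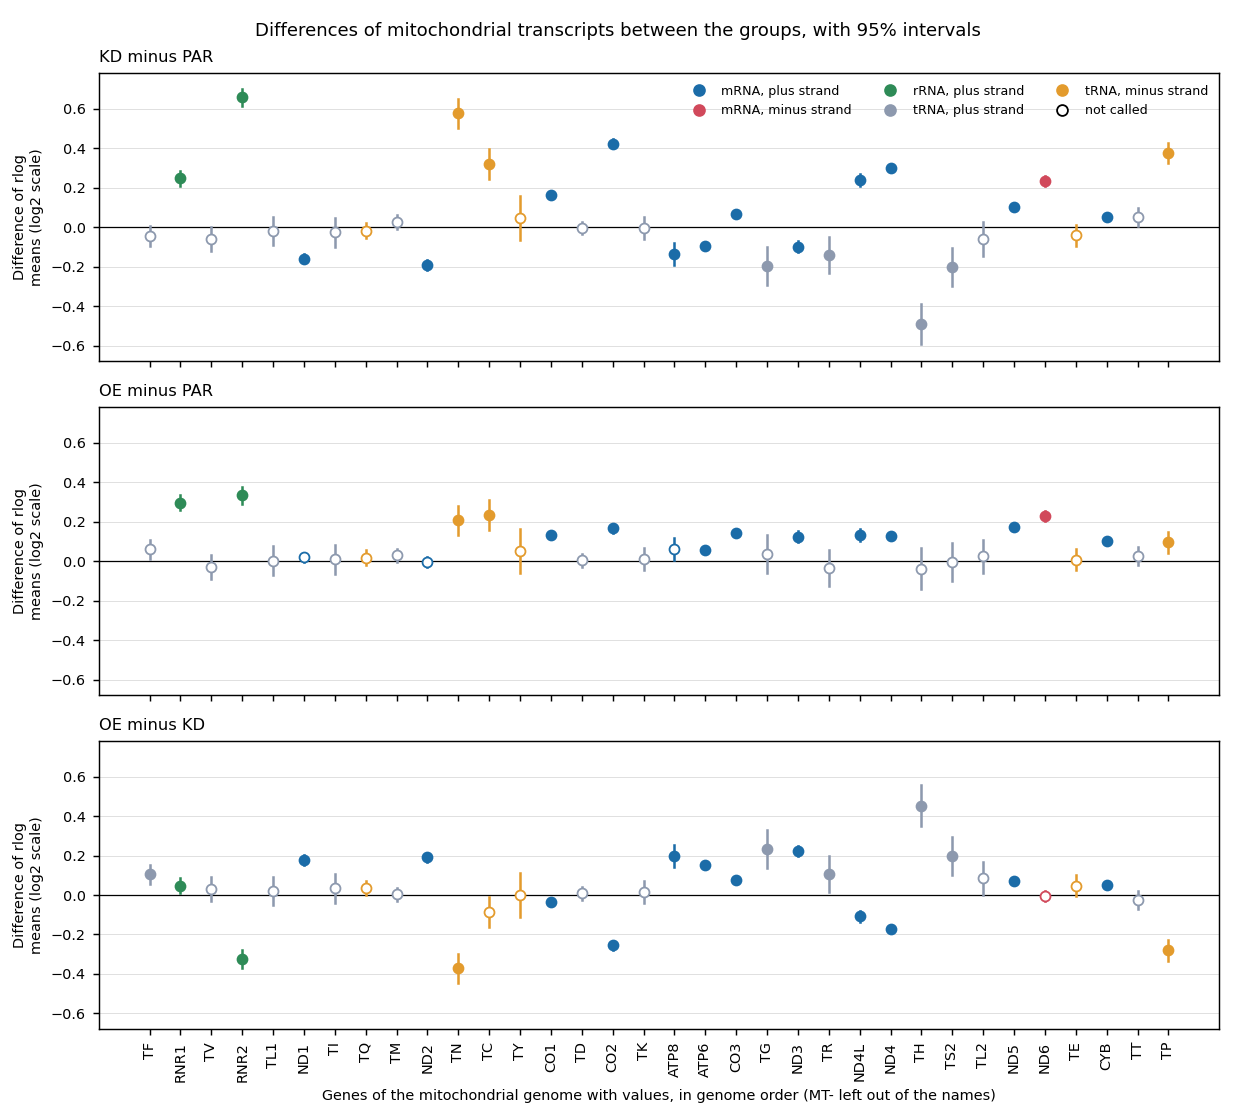
Differences of mean rlog (log2 scale) for 34 mitochondrial genes in genome order, with 95% intervals from limma, as KD minus PAR, OE minus PAR and OE minus KD. Filled circles were called; KD ranges from -0.49 for MT-TH to 0.66 for MT-RNR2 while OE against PAR has no called decrease, and under quantile normalization MT-ATP6 in OE minus PAR and MT-CO3 in OE minus KD turn negative.

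The rRNAs of the small (MT-RNR1, 12S) and large (MT-RNR2, 16S) mitochondrial ribosomal subunits lead the plus-strand precursor. The rlog value of MT-RNR2 was 15.62, 15.79 and 15.75 in the PAR libraries, 16.37, 16.39 and 16.37 in the KD libraries, and 16.07, 16.08 and 16.01 in the OE libraries. The 3 groups did not overlap, with KD highest and OE between KD and PAR. MT-RNR2 rose by 0.66 in KD (limma, standard error 0.022, adjusted p = 2.2e-22), the largest difference of any mitochondrial gene, and by 0.33 in OE (limma, standard error 0.022, adjusted p = 5.4e-14).

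MT-RNR1 had rlog values of 13.49, 13.61 and 13.54 in PAR, 13.79, 13.81 and 13.79 in KD, and 13.85, 13.86 and 13.82 in OE. It rose in both, by 0.25 in KD (adjusted p = 2.3e-13 from limma) and by 0.30 in OE (adjusted p = 1.4e-14 from limma), each with all 3 libraries above PAR. The direct difference of MT-RNR1 between OE and KD was small, at 0.048 (adjusted p = 0.030 from limma), and its adjusted p passed 0.05 without KD replicate 1 (0.097), KD replicate 3 (0.069), OE replicate 1 (0.086) or OE replicate 2 (0.15). The same held for MT-RNR1 with no variance trend (0.21), after median centring (0.064) and under quantile normalization (0.080). Both rRNA genes are neighbours on one precursor, with only MT-TV between them, yet MT-RNR2 gained on MT-RNR1 in KD by 0.41 and in OE by 0.038. Inside each library MT-RNR2 exceeded MT-RNR1 by 2.13 to 2.20 in PAR, by 2.58 to 2.59 in KD and by 2.19 to 2.22 in OE, so KD stood apart from both other groups and OE overlapped PAR.

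Complex I, the NADH dehydrogenase, takes 7 of the 13 mRNAs, and they did not move together. In KD 4 were called higher (MT-ND4, MT-ND4L, MT-ND6 and MT-ND5) and 3 lower (MT-ND2, MT-ND1 and MT-ND3). In OE 5 were called higher and none lower. MT-ND4 on the one side and MT-ND1 and MT-ND2 on the other show the contrast, since all encode membrane-arm subunits of the same complex and come from the same strand.

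The rlog value of MT-ND1 was 14.70, 14.71 and 14.68 in PAR, 14.54, 14.55 and 14.53 in KD, and 14.72, 14.73 and 14.69 in OE. All 3 KD libraries were below all PAR libraries, and the OE libraries overlapped PAR. MT-ND1 fell by 0.16 in KD (limma, standard error 0.012, adjusted p = 3.4e-13), and its difference in OE was 0.019 (95% interval -0.0055 to 0.043, adjusted p = 0.25 from limma). MT-ND4 had rlog values of 17.92, 17.94 and 17.89 in PAR, 18.22, 18.23 and 18.20 in KD, and 18.06, 18.05 and 18.02 in OE. The order of the groups was PAR, OE and KD, with no overlap. MT-ND4 rose by 0.30 in KD (limma, standard error 0.0095, adjusted p = 6.1e-23) and by 0.13 in OE (adjusted p = 1.4e-12 from limma), and under quantile normalization all 3 of its differences became 0, since it then held the same rank in every library.

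MT-ND2, the next mRNA after MT-ND1, followed it closely. Its rlog values were 16.23, 16.26 and 16.20 in PAR, 16.03, 16.04 and 16.03 in KD, and 16.26, 16.23 and 16.19 in OE. The KD libraries lay below all others and OE overlapped PAR. MT-ND2 fell by 0.19 in KD (limma, standard error 0.012, adjusted p = 6.9e-15), the largest decrease among the mRNAs, and its difference in OE was -0.0032 (95% interval -0.028 to 0.022, adjusted p = 0.88 from limma).

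MT-ND3 was called in opposite directions. Its rlog values were 14.63, 14.69 and 14.61 in PAR, 14.55, 14.53 and 14.54 in KD, and 14.78, 14.75 and 14.77 in OE. The groups were ordered KD, PAR and OE without overlap. MT-ND3 fell by 0.10 in KD (limma, standard error 0.013, adjusted p = 1.3e-07) and rose by 0.12 in OE (limma, standard error 0.013, adjusted p = 6.0e-09), and the direct difference of OE from KD was 0.22 (adjusted p = 2.3e-15 from limma). Its downstream neighbour MT-ND4L, separated from it only by MT-TR, did the reverse in KD. The rlog values of MT-ND4L were 15.09, 15.12 and 15.10 in PAR, 15.34, 15.36 and 15.33 in KD, and 15.27, 15.26 and 15.18 in OE. MT-ND4L rose by 0.24 in KD (adjusted p = 1.1e-15 from limma) and by 0.13 in OE (adjusted p = 5.6e-09 from limma), in 3 of 3 libraries each, much as MT-ND4 on the same mRNA did.

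MT-ND5, the last plus-strand gene of complex I, had its higher level in OE. It rose by 0.10 in KD (adjusted p = 8.7e-11 from limma) and by 0.17 in OE (adjusted p = 7.6e-16 from limma), with all 3 libraries of each group above PAR, and OE exceeded KD by 0.073 (adjusted p = 9.8e-08 from limma). Under quantile normalization the difference of MT-ND5 between OE and KD was 0. Of the complex I mRNAs, MT-ND4L and MT-ND4 were therefore higher in KD than in OE. MT-ND1, MT-ND2, MT-ND3 and MT-ND5 were higher in OE, and MT-ND6 was called in neither direction. By qPCR the study reports higher ND1 and ND4 in OE than in KD, so the direction for MT-ND4 differs here.

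Complex IV, cytochrome c oxidase, has 3 mitochondrial mRNAs, MT-CO1, MT-CO2 and MT-CO3, which form its catalytic core. All 3 were called higher in KD and in OE, but under quantile normalization none of the 3 was called in OE, and in KD MT-CO1 was not. MT-CO2 moved most. It had rlog values of 16.76, 16.77 and 16.69 in PAR, 17.15, 17.16 and 17.17 in KD, and 16.92, 16.89 and 16.91 in OE, again with the groups apart. MT-CO2 rose by 0.42 in KD (limma, standard error 0.011, adjusted p = 6.2e-25), the largest rise of an mRNA, and by 0.17 in OE (adjusted p = 1.0e-13 from limma). Quantile normalization left 0.27 in KD and 0.024 in OE (adjusted p = 0.098 from limma), the latter no longer called.

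The most abundant RNA, MT-CO1, had rlog values of 18.37, 18.38 and 18.35 in PAR, 18.53, 18.54 and 18.52 in KD, and 18.496, 18.504 and 18.495 in OE. MT-CO1 rose by 0.17 in KD (limma, standard error 0.0059, adjusted p = 1.5e-21) and by 0.13 in OE (adjusted p = 4.3e-18 from limma), with the groups apart, and it was slightly lower in OE than in KD, by -0.034 (adjusted p = 9.1e-06 from limma). Without a variance trend the latter adjusted p was 0.12, and as the top rank of every library MT-CO1 had differences of 0 under quantile normalization. MT-CO3 rose by 0.067 in KD (adjusted p = 6.3e-07 from limma) and by 0.14 in OE (adjusted p = 2.1e-13 from limma), which became 0.18 and 0 under quantile normalization. The rlog values of MT-CO3 were 17.30, 17.33 and 17.27 in PAR, 17.38, 17.38 and 17.35 in KD, and 17.46, 17.45 and 17.43 in OE. Here OE was above KD by 0.075 (adjusted p = 8.8e-08 from limma), the reverse of MT-CO1 and MT-CO2, except under quantile normalization, where OE was below KD by -0.18.

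Complex V, the ATP synthase, has 2 mitochondrial mRNAs, and both fell in KD. The rlog value of MT-ATP6 was 17.05, 17.05 and 17.02 in PAR, 16.96, 16.92 and 16.95 in KD, and 17.11, 17.10 and 17.08 in OE. The groups were ordered KD, PAR and OE without overlap, as for MT-ND3. MT-ATP6 fell by 0.093 in KD (limma, standard error 0.0095, adjusted p = 4.3e-10) and rose by 0.058 in OE (limma, standard error 0.0095, adjusted p = 9.3e-06), but under quantile normalization its difference in OE was -0.044 and called, so the rise does not hold under that scaling.

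MT-ATP8, which precedes MT-ATP6 on the same mRNA, had rlog values of 13.24, 13.41 and 13.37 in PAR, 13.21, 13.15 and 13.26 in KD, and 13.45, 13.35 and 13.40 in OE. The PAR libraries were spread and touched both other groups, with PAR replicate 1 lowest. MT-ATP8 fell by 0.14 in KD (limma, standard error 0.027, adjusted p = 7.1e-05), and its difference in OE was 0.061 (95% interval 0.0053 to 0.12, adjusted p = 0.085 from limma). Without PAR replicate 2 (0.096, adjusted p = 0.0071) or OE replicate 2 (0.084, adjusted p = 0.034 from limma) MT-ATP8 was called higher in OE, as it was when scaled to the sum of other genes (0.071, adjusted p = 0.032) and under quantile normalization (0.092, adjusted p = 0.015), where MT-ATP6 was lower. Complex III has only MT-CYB, cytochrome b, which rose by 0.054 in KD (adjusted p = 2.1e-05 from limma) and by 0.10 in OE (adjusted p = 4.0e-10 from limma), in 3 of 3 libraries each.

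**Figure D3:**
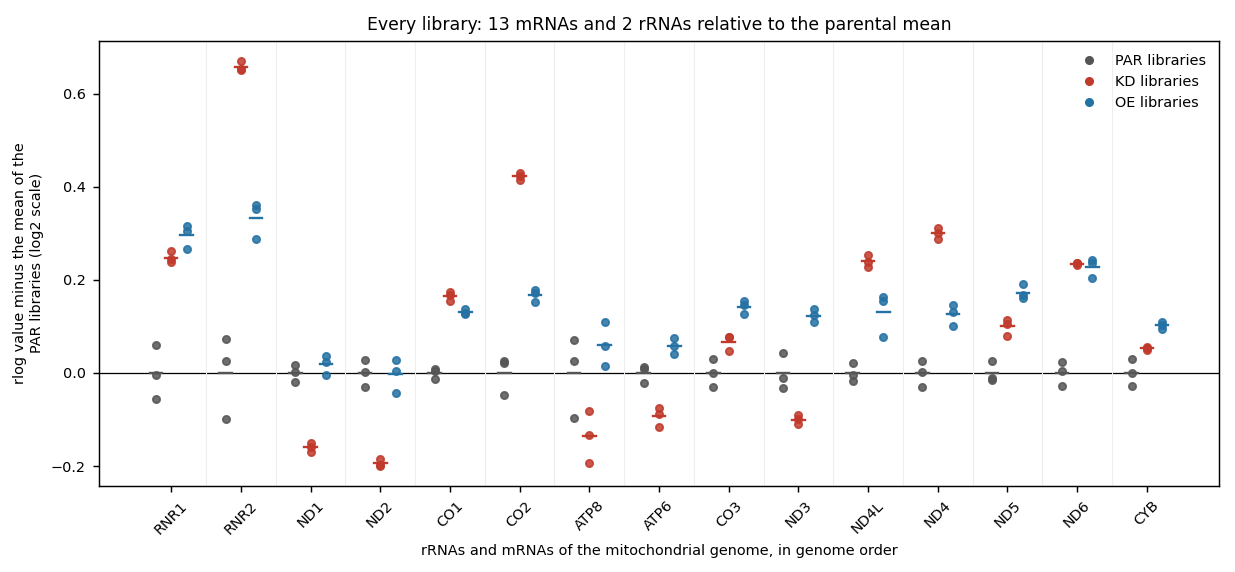
rlog value of each library minus the mean of the PAR libraries (log2 scale) for 13 mRNAs and 2 rRNAs in genome order, with a short line at each group mean. MT-ND1, MT-ND2 and MT-ND3 sit below 0 in all 3 KD libraries and MT-RNR2, MT-CO2 and MT-ND4 above all others; under quantile normalization MT-ATP6 in OE is below PAR.

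On the minus strand MT-ND6, a subunit of complex I, is the only mRNA. Its rlog values were 14.72, 14.74 and 14.69 in PAR, 14.95, 14.95 and 14.95 in KD, and 14.96, 14.95 and 14.92 in OE. KD and OE both lay above PAR and overlapped each other. MT-ND6 rose by 0.23 in KD (limma, standard error 0.012, adjusted p = 2.1e-17) and by 0.23 in OE (adjusted p = 2.4e-16 from limma), and the direct difference was -0.0064 (95% interval -0.031 to 0.018, adjusted p = 0.70 from limma). It was the only mRNA not called between OE and KD. As the kit does not mark strand, reads over MT-ND6 may come from RNA of either strand. Relative to MT-ND5, whose end it faces on the other strand, MT-ND6 gained inside the libraries: MT-ND5 exceeded it by a mean of 1.98 in PAR, 1.85 in KD and 1.93 in OE, with no overlap between groups.

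Against PAR, the calls of genes annotated on the minus strand went up only. Strand here is that of the gene, since the kit does not mark the strand of the RNA. Of its 7 genes with values, 4 were called higher in KD and 4 in OE, 3 were not called in either, and none was called lower, with a median difference of 0.23 in KD and 0.095 in OE. The plus strand was mixed in KD, where 9 of 27 genes were higher and 9 lower, and had 11 higher in OE. The share of all genes called higher, 26.9% in KD and 16.9% in OE, is the background for these counts.

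The called tRNAs split by the annotated strand of their genes, though the strand of the RNA that was read is not known. In KD the 3 minus-strand tRNAs MT-TN, MT-TP and MT-TC rose and the 4 plus-strand tRNAs MT-TH, MT-TS2, MT-TG and MT-TR fell, and no plus-strand tRNA was called higher or minus-strand tRNA lower. MT-TN, the tRNA for asparagine, had rlog values of 8.65, 8.72 and 8.67 in PAR, 9.17, 9.31 and 9.30 in KD, and 8.88, 8.86 and 8.92 in OE. The groups did not overlap. MT-TN rose by 0.58 in KD (limma, standard error 0.036, adjusted p = 3.1e-15) and by 0.21 in OE (adjusted p = 1.9e-05 from limma). MT-TP, for proline, rose by 0.38 in KD (adjusted p = 3.8e-14 from limma) and by 0.095 in OE (adjusted p = 0.0039 from limma). MT-TC, for cysteine, rose by 0.32 in KD (adjusted p = 7.9e-09 from limma) and by 0.23 in OE (adjusted p = 6.3e-06 from limma), each in 3 of 3 libraries.

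MT-TH, the tRNA for histidine that follows MT-ND4, fell furthest. Its rlog values were 6.62, 6.46 and 6.56 in PAR, 6.13, 6.08 and 5.95 in KD, and 6.48, 6.51 and 6.53 in OE, so the KD libraries lay below all others. MT-TH fell by 0.49 in KD (limma, standard error 0.050, adjusted p = 5.1e-10), and its difference in OE was -0.038 (95% interval -0.14 to 0.065, adjusted p = 0.62 from limma). MT-TS2, for serine, fell by 0.20 (adjusted p = 5.0e-04 from limma), MT-TG, for glycine, by 0.20 (adjusted p = 6.2e-04 from limma) and MT-TR, for arginine, by 0.14 (adjusted p = 0.0071 from limma), all in 3 of 3 KD libraries. MT-TR was not called without PAR replicate 1 (-0.11, adjusted p = 0.058 from limma). MT-TH and MT-TS2 lie between MT-ND4 and MT-ND5, which both rose, whereas MT-TG and MT-TR lie on either side of MT-ND3, which fell with them, and have MT-CO3 and MT-ND4L, which rose, as their other neighbours.

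In the direct comparison MT-TH (0.45), MT-TG (0.23), MT-TS2 (0.20), MT-TR (0.11) and MT-TF (0.10) were higher in OE than in KD and MT-TN (-0.37) and MT-TP (-0.28) lower. MT-TF, for phenylalanine, is the first gene of the plus strand and was called only here (adjusted p = 4.5e-04 from limma), with differences of -0.045 in KD and 0.059 in OE from PAR. The latter just missed the threshold (adjusted p = 0.053 from limma) and passed it with no variance trend (0.035), when scaled to the sum of other genes (0.024) and without PAR replicate 3 (0.046). MT-TR (adjusted p = 0.048 from limma) was not called in this comparison when any 1 of the 6 KD and OE libraries was left out, with adjusted p between 0.059 and 0.12. MT-TC, at -0.087, missed the threshold (adjusted p = 0.056 from limma) and passed it without KD replicate 1 (0.038), PAR replicate 1 (0.046) or PAR replicate 2 (0.049), with no variance trend (0.048), after median centring (0.040), with only the 2 groups compared (0.044) and with array weights (0.042). The other 11 tRNAs were called in no comparison. They had mean rlog values from 1.08 to 5.85 and differences between -0.062 and 0.084, with standard errors from 0.016 to 0.055, and the called MT-TF, MT-TS2, MT-TR and MT-TG lay in the same range of levels.

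The opposite shifts along the plus strand can be read as steps from a gene to the next. In KD the differences of 14 consecutive rRNAs and mRNAs changed sign 6 times, with steps of a median size of 0.20. The largest step was from MT-RNR2 to MT-ND1, at -0.82, and the next was from MT-CO2 to MT-ATP8, at -0.56. In OE the median step was 0.038 and the largest, again from MT-RNR2 to MT-ND1, was -0.31. Steps in KD were small between the frames that share an mRNA, at 0.042 from MT-ATP8 to MT-ATP6 and 0.060 from MT-ND4L to MT-ND4, and as small between genes on separate mRNAs, at -0.034 from MT-ND1 to MT-ND2 and -0.046 from MT-ND5 to MT-CYB.

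Pairs of genes compared inside a library do not depend on how the libraries were scaled to each other, other than by quantile normalization. MT-ND4 exceeded MT-ND1 by 3.22, 3.23 and 3.21 in the PAR libraries, by 3.68, 3.68 and 3.68 in KD, and by 3.34, 3.31 and 3.32 in OE. The 3 groups were apart, with KD farthest from PAR. MT-CO2 was below MT-ATP6 in PAR (-0.29, -0.29 and -0.32) and in OE (-0.20, -0.21 and -0.17) and above it in all 3 KD libraries (0.19, 0.24 and 0.22), so the order of these rlog values was turned in KD.

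MT-ND4L exceeded MT-ND3 by 0.44 to 0.49 in PAR, 0.79 to 0.82 in KD and 0.41 to 0.51 in OE, where OE overlapped PAR and KD did not. MT-CO1 exceeded MT-ND2 by 2.12 to 2.16 in PAR, 2.49 to 2.50 in KD and 2.24 to 2.31 in OE. MT-ATP6 minus MT-ATP8, the pair on a single mRNA, overlapped between all groups. Among the pairs chosen, the widest change was that of MT-TN against MT-TH. It went from 2.03 to 2.26 in PAR to 3.04 to 3.34 in KD, with 2.36 to 2.39 in OE. No p is given for these pairs, since they were chosen after their values were seen.

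**Figure D4:**
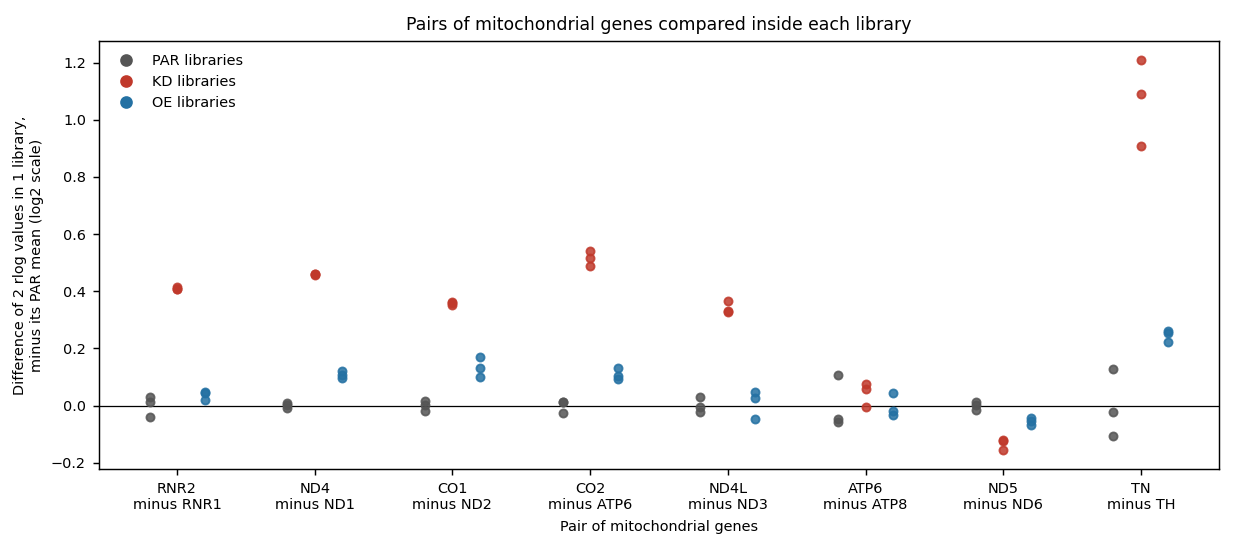
Difference between the rlog values of 2 mitochondrial genes inside each library, minus its mean in PAR (log2 scale), for 8 pairs, with a point for each of 9 libraries. The KD libraries stand apart from PAR and OE in 7 pairs, and MT-ATP6 minus MT-ATP8 overlaps in all groups.

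Summed over the genome, opposite shifts partly cancelled and an increase was left. The 34 genes made up 4.11, 4.16 and 4.05% of the linear total in the PAR libraries, 4.61, 4.62 and 4.57% in KD, and 4.55, 4.53 and 4.45% in OE, so both groups were above PAR. The rRNAs rose as a share from 0.188% ± 0.010 in PAR to 0.283% ± 0.0023 in KD and 0.237% ± 0.0067 in OE (SD, n = 3). The tRNAs together were 0.0056% in PAR and 0.0071% in KD. These shares carry no p, since the genes were chosen as a group with earlier results known.

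What the genes share beyond position did not sort the shifts cleanly. Of the 6 mRNAs whose stop codon is completed by the poly(A) tail (MT-ND1, MT-ND2, MT-CO3, MT-ND3, MT-ND4 and MT-CYB), 3 were higher and 3 lower in KD. Of the 7 with a stop codon complete in the annotation 5 were higher and 2 lower. The last base of the stop codon of MT-ATP6 is the first of MT-CO3, and with MT-ATP6 counted among the former, a count added after the values were seen, 3 of 7 were higher and 4 lower against 5 and 1 of the other 6. The 13 mRNAs are not independent, since they share precursors and libraries. Across them the difference in KD had a Pearson r of 0.28 with GC content, 0.15 with length and 0.30 with the identity to the best nuclear copy. It was 0.41 with the level in PAR and 0.44 with gene order. With the longest run identical to a nuclear copy, r was -0.28 in KD and -0.45 in OE. For OE minus KD, Spearman's rho with the level in PAR was -0.56. For OE the r with gene order was 0.70, with the lower values at the start of the genome (MT-ND1, MT-ND2), and Spearman's rho was 0.52.

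Copies of mitochondrial sequence in the nuclear genome can take or lend reads. Each gene was aligned to the nuclear chromosomes of GRCh38 by blastn. A stretch of chromosome 1 (chr1:629640-634376) matched MT-ND2, MT-CO1, MT-CO2, MT-ATP8 and MT-ATP6 over their whole length with 97.6 to 98.6% identity, and 3 mRNAs (MT-ND1, MT-ND2 and MT-CO1) held a run of at least 150 bases without a mismatch to a nuclear copy, as did MT-RNR1 (219 bases). For 7 tRNA genes, among them MT-TN and the 3 tRNAs without values, a nuclear copy was identical over the full length. The values of these genes are uncertain to that extent. Best copies of MT-TH and MT-TP were 98.6% and 91.2% identical.

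Copies with values of their own were few and low. MTND5P42 (mean rlog 3.64), MTCO1P40 (2.39) and MTCO1P1 (2.20) were the 3 with values. MTND5P42 was higher in KD by 0.087 (adjusted p = 0.045 from limma) and the other copies were not called in KD, with 0.032 and 0.042, and none of the 3 was called in OE. How much of any mitochondrial value comes from copies was not tested.

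Among nuclear genes that act on the mitochondrial genome and its RNA, more were called lower than higher. For mitochondrial transcription and its regulators, 16 of 17 listed genes had values, of which 3 were called higher and 9 lower in KD, with a median of -0.081, where 26.9% of all genes were higher and 26.9% lower. In OE 3 were higher and 4 lower, with a median of -0.020, close to the 16.9% and 18.0% of all genes. POLRMT fell by 0.097 in KD (adjusted p = 0.0016 from limma), TFAM, which packages the genome and opens its promoters, fell by 0.17, and TFB2M, which melts the promoter, fell by 0.21. TFB1M, a methyltransferase of the 12S rRNA, rose by 0.31, and the coactivators PPARGC1A and PPARGC1B moved by 0.62 and -0.52. In OE, TFB2M fell by 0.11, PPRC1 fell by 0.23, PPARGC1B fell by 0.27, PPARGC1A rose by 0.21 and MTERF2 by 0.12, and POLRMT (-0.054) and TFAM (-0.047) were not called (adjusted p = 0.11 for both from limma). Between OE and KD 6 of the 16 were higher in OE and 4 lower, where 23.5% of all genes were higher and 23.8% lower.

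For mitochondrial RNA processing, stability and decay, 33 of 40 genes had values, of which 5 were called higher and 17 lower in KD (median -0.081) and 4 higher and 16 lower in OE (median -0.052). The largest decreases in KD were those of PDE12 (-0.48), which removes poly(A) tails from mitochondrial RNA, the helicase DHX30 (-0.45), the pseudouridine synthase PUS1 (-0.40) and TRNT1 (-0.34), which adds the CCA end to tRNAs. In OE the largest were those of FASTKD2 (-0.17), PUS1 (-0.15) and GTPBP3 (-0.15), and TRIT1 rose by 0.15. LRPPRC rose by 0.065 in KD (adjusted p = 1.7e-04 from limma) and by 0.10 in OE. Its partner SLIRP was lower in KD (-0.16, adjusted p = 1.7e-07 from limma) and in OE (-0.068, adjusted p = 0.014 from limma). Between OE and KD 14 of the 33 were higher in OE and 6 lower, led by PDE12 (0.38), DHX30 (0.35), TRNT1 (0.29) and PUS1 (0.25), beside 23.5% higher and 23.8% lower of all genes. For comparison, 26.9% of all genes were called lower in KD and 18.0% in OE. Whether these genes bear on the shifts of single mitochondrial RNAs was not tested.

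For replication and copy number of the genome, 14 of 16 genes had values, of which 4 were called higher and 7 lower in KD (median -0.040) and 1 higher and 6 lower in OE (median -0.053), beside 26.9% higher and 26.9% lower of all genes in KD and 16.9% and 18.0% in OE. SLC25A36, a pyrimidine nucleotide carrier, rose in both (0.36 in KD and 0.37 in OE), and TOP3A (-0.25 and -0.22), SLC25A33 (-0.26 and -0.15) and RRM2B (-0.19 and -0.094) fell in both. Between OE and KD, where 23.5% of all genes were higher and 23.8% lower, 5 were higher and 4 lower, with TK2 (-0.17), POLG (-0.13), SLC25A33 (0.10) and RRM2B (0.092) at the front. The number of mitochondrial genomes itself was not measured.

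**Figure D5:**
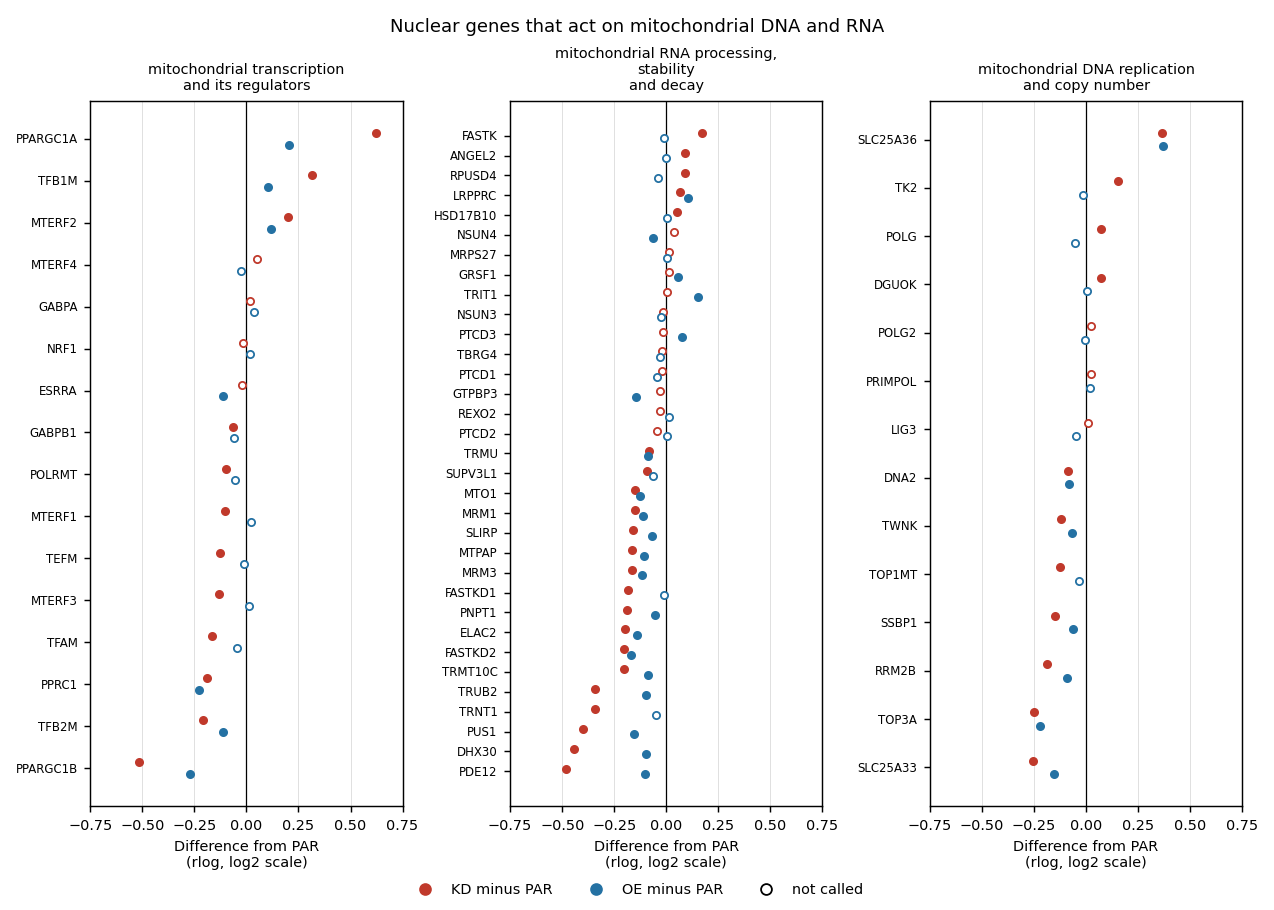
Differences of mean rlog (log2 scale) from PAR in KD and OE for nuclear genes of mitochondrial transcription (16), of mitochondrial RNA processing, stability and decay (33) and of mitochondrial DNA replication (14), ordered by the KD value, with open circles for genes not called. Most called genes lie left of 0, with PPARGC1B at -0.52 and PDE12 at -0.48 in KD.

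Because the kit selects poly(A) RNA, RNAs known to lack a long tail were examined as a sign of how much other RNA entered the libraries. Of 39 listed genes, mostly replication-dependent histone genes, 26 had values. In KD none was called higher and 5 were lower, led by H2AC6 (-0.29), beside 26.9% higher and 26.9% lower of all genes, most of which have higher levels than these, and the median over the list was -0.0048. In OE 1 was called higher, H2BC7 by 0.038, and none lower (all genes 16.9% and 18.0%), and between OE and KD 6 were higher, led by H2AC6 (0.35), and none lower (all genes 23.5% and 23.8%). The part of poly(A) selection in the values of rRNAs and tRNAs was not tested.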

How the data were processed

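The analysis starts from rlog values, that is log2 values regularized by the authors before they were deposited, for 22290 genes in 9 libraries. According to the notes of the authors, reads were trimmed with cutadapt (quality 20, reads under 36 bases removed), aligned to GRCh38 with HISAT2 and counted with featureCounts, and genes with a total count under 10 were removed. The versions of these tools are not given in the sources used here. Counts were not analysed here. The main results use the rlog values without renormalization, and values under another scaling are named as such. The table has 3 further columns without values, which were not used. Ensembl IDs were matched to symbols of GENCODE 44, which gave a symbol for 22195 genes.

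Groups were compared with limma 3.58.1 in R 4.3.3, with 1 mean per group over all 9 libraries, moderated variances with a trend on the level, and Benjamini-Hochberg adjustment over 22290 genes. A gene was called at an adjusted p under 0.05. Linear levels are 2 to the power of rlog. Gene positions, strands and sequences came from GRCh38, and copies were searched with blastn 2.17.0 (e-value up to 1e-05) with pandas 2.3.3 under python 3.11.15 for the tables.

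The members were chosen by their symbols, and the lists of nuclear genes and markers from general knowledge, with earlier results of these data known. The lists covered mitochondrial transcription, mitochondrial DNA replication, mitochondrial RNA processing, nuclear subunits of complexes I, III, IV and V, and RNAs without a poly(A) tail. The marker lists were neuroblastoma, epithelial, mesenchymal, glial and Schwann, and leukocyte markers. Some further markers are not reported here. By a rule fixed before the values were read, all mRNAs and rRNAs are named, tRNAs where called or highest or lowest, and from each list up to 4 called genes with the largest differences per comparison plus POLRMT, TFAM, TFB2M and LRPPRC. Library values are given for mRNAs, rRNAs and MT-TH where call or direction differs between KD and OE or is opposite to the median mRNA. MT-TG, MT-TS2 and MT-TR also met this, but their library values are not printed. Levels of markers, pairs of genes, SLIRP and further library values were chosen after the values were seen.

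Alternatives tried were no variance trend, a level filter, median centring, quantile normalization, scaling to the sum of genes outside the mitochondrial genome, fitting only the groups compared, a replicate block, array weights, a rule with unadjusted p and a minimum difference, and leaving out each library in turn.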

Additional observations from a re-analysis of the deposited data

How the results depend on the processing

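The 72 differences of 24 named mitochondrial genes were recomputed under 18 alternatives. Of 1284 values, 1167 kept direction and side of the threshold, 84 were no longer called, 14 became called and 19 turned direction, of which 2 were called in the text. Calls were fewest under the rule of an unadjusted p and a difference over 0.5: 2 genes in KD (2 higher, 0 lower), 0 in OE (0 higher) and 0 between OE and KD (0 higher, 0 lower), and TRAP1 was not called at 0.14 in KD or at -0.12 between OE and KD. Quantile normalization gives the top ranks equal values in all libraries and so sets MT-CO1 and MT-ND4, and MT-CO3 in OE, to 0 by construction. Under it 1 gene was lower in OE, MT-ATP6 (-0.044, adjusted p = 5.40e-05 from limma), and MT-CO3 was lower in OE than in KD (-0.18, adjusted p = 4.46e-21 from limma), the 2 called values that turned. For the other turned values the cause was not tested.

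Other differences that turned were near 0 and not called. For MT-ND2 in OE they were 0.0018 under quantile normalization and 0.0071 when scaled to the sum of other genes, with -0.019 to 0.017 when a library was left out. For MT-TS2 in OE they were 0.00649 with that scaling and 0.0048 with array weights, with -0.052 to 0.041 when a library was left out. MT-TD had 0.00036 in KD with that scaling and -0.014 in OE after median centring, with -0.013 to 0.0035 in KD and -0.0052 to 0.013 in OE when a library was left out. Leaving out a library gave -0.0055 to 0.065 for MT-TG in OE and -0.014 to 0.0055 for MT-ND6 between OE and KD. TRAP1 in OE was -3.93e-05 after median centring and -0.012 to 0.042 when a library was left out.

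Without any 1 library, 21 to 23 genes were called in KD, 15 to 16 in OE and 19 to 22 between OE and KD. Apart from the rule with a minimum difference, other settings gave 20 to 23 in KD, 12 to 17 in OE and 16 to 22 between OE and KD. Median centring changed the share of higher among all called genes in OE from 48.5% to 36.2%, and scaling to the sum of other genes changed it to 55.2%. The filter at a mean rlog of 5 took the low tRNAs out of the fit.

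With the replicate number as a block, 22 genes were called in KD, 15 in OE and 20 between OE and KD, MT-TR being the call that was lost. Deviations of same-numbered libraries correlated by -0.046 to 0.10, and for 4 of 9 libraries the best match in another group had the same number. By these measures the numbers do not pair the libraries. The summed share of the mitochondrial genes was, however, lowest in replicate 3 of each group (4.05% in PAR, 4.57% in KD and 4.45% in OE).

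Limits are the unknown number of reads counted in each library, shrunken values without counts, 3 libraries per group with no statement of separate cultures, a kit that selects poly(A) RNA and does not mark strand, and nuclear copies of mitochondrial genes.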

Other observations

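The nuclear genes for subunits of the respiratory chain were also mixed in KD. In OE against PAR, and in OE against KD, each of complexes I, III, IV and V had more calls higher than lower. Over all genes 26.9% were called higher and 26.9% lower in KD, 16.9% and 18.0% in OE, and 23.5% and 23.8% between OE and KD. Of the 32 nuclear complex I subunits analysed, 9 went up and 8 went down in KD among those called and 11 went up and 3 down in OE (limma), close in KD to the shares over all genes, and led there by NDUFA8 (-0.53), NDUFB9 (-0.31), NDUFA3 (0.24) and NDUFA13 (0.20), and in OE by NDUFB4 (0.14), NDUFA8 (-0.14), NDUFA3 (0.13) and NDUFS6 (-0.13). NDUFA8 belongs to the membrane arm, next to the products of the mitochondrial genes. For complex III, 1 of 8 was higher and 5 lower in KD, among them UQCRC1 (-0.32), UQCR10 (-0.28) and CYC1 (-0.22), and 3 were higher and none lower in OE, UQCRB (0.14), UQCRC2 (0.13) and UQCRH (0.054). Between OE and KD 7 of these 8 were higher and none lower.

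For complex IV, 5 of 10 were higher and 1 lower in KD, with COX7C (0.22) and COX5B (0.13) first and COX7B (-0.078) lower, and 7 were higher and none lower in OE, with COX5B (0.17) and COX6C (0.16) first. As with the mitochondrial mRNAs of this complex, most calls were upward in both groups. For complex V, 3 of 13 were higher and 3 lower in KD, among them ATP5F1E (0.25), ATP5MC2 (0.17) and ATP5F1D (-0.15), and 7 were higher and 1 lower in OE, with ATP5MC3 (0.10) and ATP5F1A (0.095) first.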
